A study of Mus musculus with 10 samples.

Results

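The heat shock and DnaJ chaperone promoters are 2000 bp windows centred on annotated transcript starts, chosen where the centre lies within 200 bp of the start of a protein-coding gene with a symbol beginning with Dnaj, Hspa, Hspb, Hspd, Hspe, Hsph, Hsp90 or Hsf. The annotation (RefSeq, GRCm38.p6, the assembly that mm10 represents) holds 81 such genes. A window in all 3 deposited tables was found for 74 of them, out of 15914 protein-coding genes placed in the same way. The remaining 7 (Dnajc5, Dnajc12, Dnajc16, Dnajc18, Dnajc22, Hspa13 and Hsf4) had no such window in all 3 tables and were not analysed here. The 74 genes had 141 windows in all 3 tables, and each gene is described by 1 of them.

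Heat shock proteins are chaperones: they bind unfolded proteins, help them fold and hold back aggregation. Hsp70 proteins work in cycles of ATP hydrolysis that DnaJ (Hsp40) proteins start and Hsp110 proteins end by exchanging nucleotide, while Hsp90 matures signalling proteins and Hsp60 with Hsp10 folds proteins in mitochondria. Heat shock factors are the transcription factors that switch on the stress-inducible members. In the mouse, maternal Hsf1 and the Hsp70 genes are known from studies of oocyte maturation and of the first transcription after fertilisation.

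The cells were mouse metaphase II (MII) oocytes, the unfertilised eggs, of C57BL6/129 strain, in 3 groups: 4 libraries of wild-type (WT) mice of 2 months, called young WT (2-month WT in the plots), 3 of WT mice of 11 months, called older WT (11-month WT in the plots), and 3 of Tet2 knockout (Tet2KO) mice of 2 months. Tet2 encodes an enzyme that oxidises 5-methylcytosine. The sources used here do not give the Tet2 allele or the cells in which it is lost. Methylation was read by low-input bisulfite sequencing, which does not separate methylcytosine from hydroxymethylcytosine.

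Each group is deposited as 1 pooled value per window, so the differences have no check by replicates and no test was possible. The level of a window is the methylated share of all its CpG calls, in percent. Wilson 95% intervals of levels and Newcombe 95% intervals of differences cover counting error only, and calls from PCR copies or from the same read are not independent. Differences are in percentage points, called points. The nuclear windows of the tables held 9392359 calls in young WT, 16993859 in older WT and 5464356 in Tet2KO, where overlapping windows count a call more than once, and the median protein-coding promoter held 187, 350 and 113. Of 10 measured genes with oocyte-methylated imprints, 8, 8 and 7 were at 80% or more, while the 3 paternally methylated genes measured reached at most 23.4%, 6.67% and 2.5%. The window of the targeted gene Tet2 was at 14.02%, 7.12% and 2.87%, which does not check the genotype labels, since methylation around a start does not show a deletion.

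The promoters on which the account turns are shown first, 5′ to 3′ on the strand of the gene, from 250 bases before to 50 after the RefSeq start (RefSeq, GRCm38.p6). Such a sequence was held for 64 of the 74 genes. Capitals mark each CpG, the unit at which methylation was read. Hspa1b and Hspa1a are the inducible Hsp70 genes with the highest young WT levels of the Hsp70 group; Hspa5, the Hsp70 of the endoplasmic reticulum, has a denser CpG promoter; Hspb3, a small heat shock protein of muscle, differed in the opposite direction; and Dnajb7 was methylated in every pool.
Hspa1b, chr17:34959189-34959488, minus strand: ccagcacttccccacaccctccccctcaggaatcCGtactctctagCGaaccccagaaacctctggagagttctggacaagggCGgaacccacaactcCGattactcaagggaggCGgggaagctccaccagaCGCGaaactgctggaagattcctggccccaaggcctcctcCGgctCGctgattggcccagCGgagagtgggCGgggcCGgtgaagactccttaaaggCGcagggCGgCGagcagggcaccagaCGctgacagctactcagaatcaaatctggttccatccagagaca
Hspa1a, chr17:34972107-34972406, minus strand: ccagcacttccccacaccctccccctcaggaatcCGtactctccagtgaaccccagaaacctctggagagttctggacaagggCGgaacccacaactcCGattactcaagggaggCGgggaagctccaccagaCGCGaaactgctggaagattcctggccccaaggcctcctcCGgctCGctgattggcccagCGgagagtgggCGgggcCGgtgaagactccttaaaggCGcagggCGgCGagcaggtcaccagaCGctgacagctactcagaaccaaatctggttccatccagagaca
Hspa5, chr2:34771840-34772139, plus strand: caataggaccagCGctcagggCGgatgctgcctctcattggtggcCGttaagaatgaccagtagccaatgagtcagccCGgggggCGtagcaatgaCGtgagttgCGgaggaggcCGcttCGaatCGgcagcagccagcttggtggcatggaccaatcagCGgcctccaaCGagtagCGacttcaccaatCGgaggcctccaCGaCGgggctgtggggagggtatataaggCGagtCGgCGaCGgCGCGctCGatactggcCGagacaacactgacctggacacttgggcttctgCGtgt
Hspb3, chr13:113663627-113663926, minus strand: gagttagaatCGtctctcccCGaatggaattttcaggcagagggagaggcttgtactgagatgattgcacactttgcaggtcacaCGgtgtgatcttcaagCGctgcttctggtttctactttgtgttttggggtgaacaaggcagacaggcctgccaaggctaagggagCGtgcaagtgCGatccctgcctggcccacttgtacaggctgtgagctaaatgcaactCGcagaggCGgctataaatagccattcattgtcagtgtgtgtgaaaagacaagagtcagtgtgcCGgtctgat
Dnajb7, chr15:81408224-81408523, minus strand: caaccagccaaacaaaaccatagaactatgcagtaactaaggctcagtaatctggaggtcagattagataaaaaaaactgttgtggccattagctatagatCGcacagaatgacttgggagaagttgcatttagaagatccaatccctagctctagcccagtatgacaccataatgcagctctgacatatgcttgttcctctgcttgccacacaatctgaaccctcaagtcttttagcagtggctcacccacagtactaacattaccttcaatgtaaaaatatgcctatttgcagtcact

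The promoter sequences of Hspa1a and Hspa1b were identical at 296 of 300 bases. The sources used here do not say how reads that fit both copies were placed, so the values of these genes may share reads and are uncertain as separate measurements. The printed stretches hold 16 CpGs for Hspa1b, 15 for Hspa1a, 25 for Hspa5, 9 for Hspb3 and 1 for Dnajb7. The median was 21.5 CpGs over the 64 chaperone promoters and 7.0 over all 32817 promoters of the table. The 64 had a covered window in all 3 pools, whereas the 32817 were not chosen by coverage, so the sets are unlike. The sequence starts of Hsf3 and Dnajc6 lay 88375 and 11329 bp from the centres of their windows.

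Heat shock factors recognise repeats of the bases GAA. The letters GAANNTTC or TTCNNGAA, each of which reads the same on both strands, were found in 16 of the 64 chaperone promoters (25%) and in 15.1% of all promoters of that length. GAANNTTC was in 14 (21.9%, beside 7.86%) and TTCNNGAA in 6 (9.38%, beside 8.51%). The 16 include Hspd1 and Hspe1, whose stretches overlap, and the near-identical Hspa1a and Hspa1b. The 2 patterns can overlap each other, as they do in Hspe1, and a match is a description and not a site of binding. The promoters of Hspb1, which holds 2 matches, and of Hspe1, which holds 3, are shown with the matched letters in capitals.
Hspb1, chr5:135887669-135887968, plus strand: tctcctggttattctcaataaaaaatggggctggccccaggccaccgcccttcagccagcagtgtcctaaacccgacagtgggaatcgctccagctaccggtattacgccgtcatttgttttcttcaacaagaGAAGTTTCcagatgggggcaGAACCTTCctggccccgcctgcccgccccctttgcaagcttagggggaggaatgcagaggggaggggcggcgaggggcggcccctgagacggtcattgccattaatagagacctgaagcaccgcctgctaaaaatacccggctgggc
Hspe1, chr1:55087898-55088197, plus strand: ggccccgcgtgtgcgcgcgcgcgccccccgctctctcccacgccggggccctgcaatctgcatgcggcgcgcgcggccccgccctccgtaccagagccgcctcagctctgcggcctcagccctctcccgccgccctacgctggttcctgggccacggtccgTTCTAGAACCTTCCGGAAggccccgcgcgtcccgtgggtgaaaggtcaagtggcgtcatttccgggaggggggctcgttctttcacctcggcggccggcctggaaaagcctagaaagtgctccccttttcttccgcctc
Hspa1a and Hspa1b hold 1 match each, 104 bases before the start. Of the other letters searched on both strands, CCAAT was in 25 of the 64 promoters (39.1%, beside 37.4% of all promoters) and TATAAA in 5 (7.81%, beside 13.6%). The promoter of Hspa5 holds 4 CCAAT matches.

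Most chaperone promoters were under 5% in older WT and in Tet2KO, and just under 50% of them were in young WT. The median level over the 74 genes was 5.25% in young WT, 2.39% in older WT and 2.01% in Tet2KO, against 2.5%, 2.21% and 1.72% over all protein-coding promoters. Levels under 5% were found at 36, 54 and 56 of the 74 genes. That is 48.6%, 73.0% and 75.7% of the chaperone promoters, beside 66.5%, 73.2% and 73.7% of all promoters. Levels of 20% or more were found at 13 genes in young WT (17.6%) and at 6 in each of the other pools (8.11%), beside 11.4%, 10.2% and 10.6% of all promoters.

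**Figure D1:**
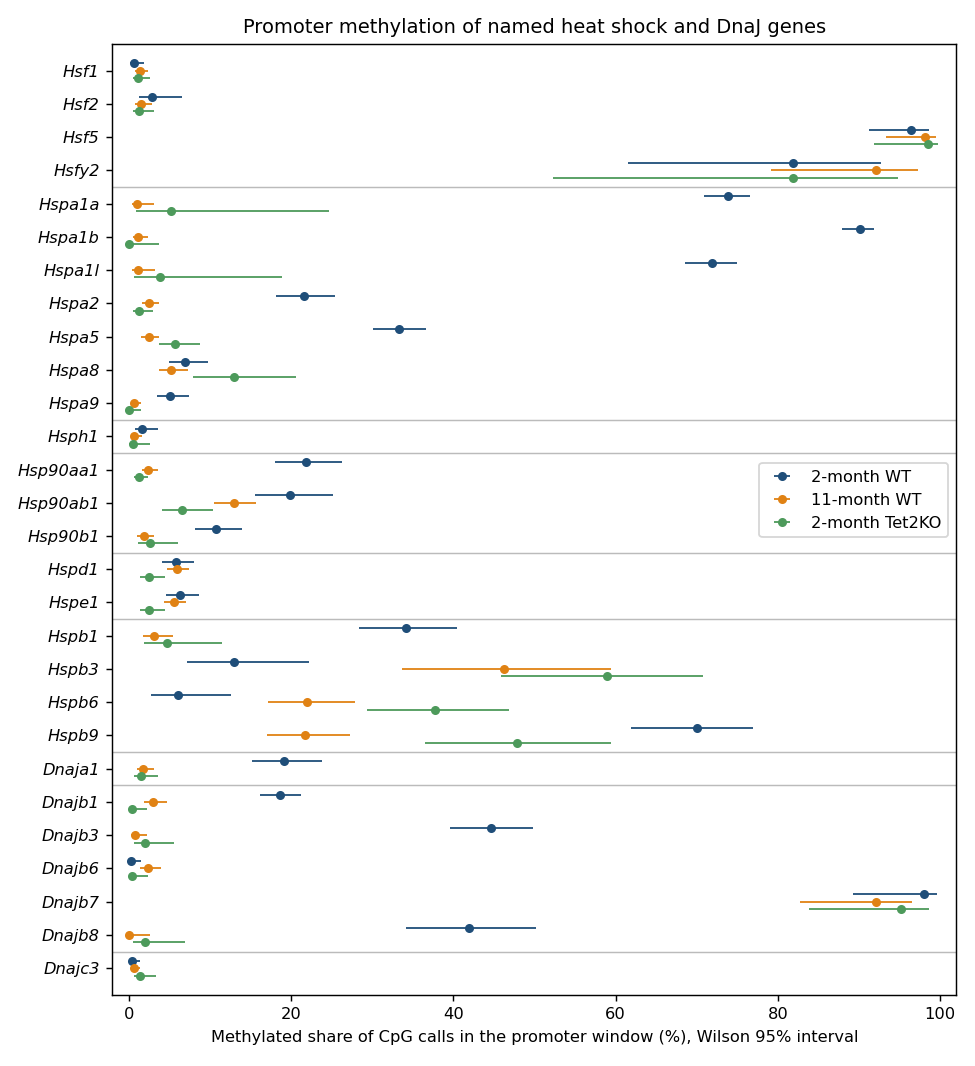
Methylation level of the promoter windows of 28 named chaperone genes, ordered by family and separated by grey lines, in percent of CpG calls, with 1 pooled value per group and Wilson 95% intervals for counting error. Hspa1a, Hspa1b and Hspa1l lie at 71.9% to 90.1% in young WT and at 5.26% or less in the other pools, while Hspb3 and Hspb6 lie lowest in young WT.

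With age, 8 of the 74 genes (10.8%) were lower at 11 months by 20 points or more and 1 was higher. Over all protein-coding promoters, 2.42% were lower by as much and 1.8% were higher. The 8 were Hspa1a, Hspa1b, Hspa1l, Hspa5, Hspb1, Hspb9, Dnajb3 and Dnajb8, and the higher one was Hspb3. In Tet2KO against WT at 2 months, 10 of 74 (13.5%) were lower and 2 higher, beside 2.77% and 2.21% of all promoters. The 10 were the same 8 genes with Hspa2 and Hsp90aa1, and Hspb3 and Hspb6 were higher. The Tet2KO differences of Hspa2 and Hsp90aa1 were under 20 points by the deposited fraction (-9.47 and -13.0) and by the mean over a gene's windows (-10.6 and -19.0), and that of Hspb6 by the fraction (18.3). Both comparisons use the same young WT pool, so they are not independent of each other. Nor are all members separate: the windows of Hspa1a and Hspa1l overlap, and Hspd1 and Hspe1 share nearly the same one. Without Hspa1l and Hspe1, 7 of 72 members were lower and 1 higher with age, and 9 were lower and 2 higher in Tet2KO. Hspa1a and Hspa1b, which may share reads, both stayed in that count.

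Among lower members, those just inside and outside the threshold of 20 points were Hspa5 (-30.8) and Hsp90aa1 (-19.5) for age, and Hspa2 (-20.3) and Dnajb1 (-18.2) for Tet2KO. The median difference was near 0: -0.065 points for age and -0.646 for Tet2KO over the members, beside 0 and -0.370 over all promoters. A few genes with large differences thus stood beside a majority with small ones. The middle 50% of member differences ran from -6.71 to 1.69 points for age and from -7.73 to 1.03 for Tet2KO, beside -2.28 to 1.53 and -2.84 to 1.19 over all promoters. Past 10 points, a limit added after the data were seen, 14 members were lower and 4 higher with age, where 7.04% and 4.3% of all promoters were. For Tet2KO 15 were lower and 2 higher, beside 8.14% and 5.3%.

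**Figure D2:**
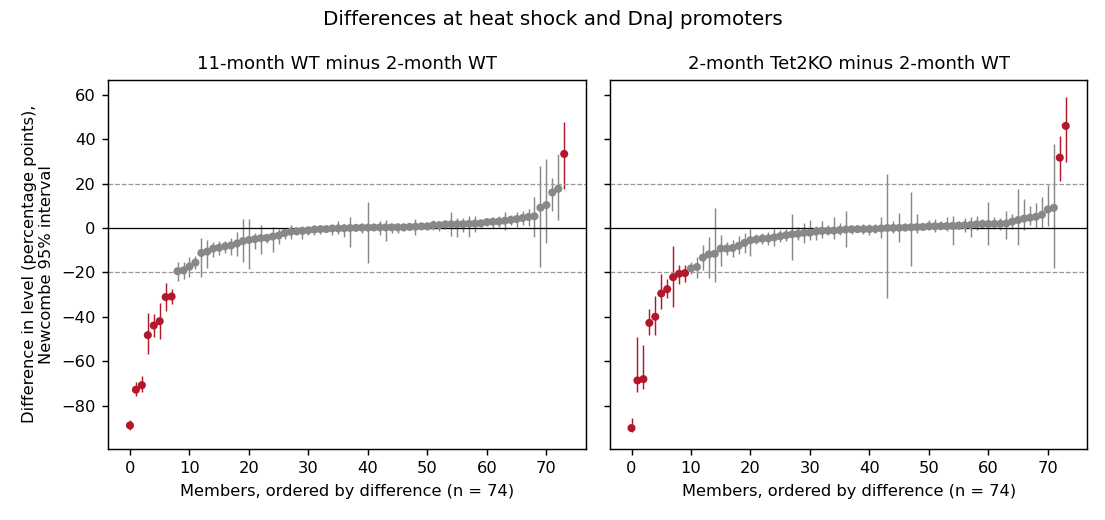
Differences in level of the 74 chaperone promoters in percentage points against young WT, each panel ordered from lowest to highest, with Newcombe 95% intervals for counting error; dashed lines mark 20 points either way and red marks members past them. In each panel a steep tail of lower members, 8 for older WT and 10 for Tet2KO, stands beside a flat majority near 0.

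The Hsp70 genes held the widest differences. Hspa1b encodes an inducible Hsp70, and its window (chromosome 17, 34958239 to 34960238) was at 90.1% of 916 calls in young WT (Wilson interval 88.0 to 91.8). The same window was at 1.19% of 586 calls in older WT and at 0% of 98 calls in Tet2KO, a count of 0 that allows up to 3.06%. Only the young WT pool was high there, and the differences from it were -88.9 points for age (interval -90.7 to -86.4) and -90.1 for Tet2KO (-91.8 to -85.7). Hspa1a, its near-identical neighbour (34971157 to 34973156), was at 73.9% of 907 calls, 1.08% of 278 and 5.26% of 19 in the same order. The Tet2KO value of Hspa1a rests on 1 methylated call, and the interval of its difference from young WT ran from -73.7 to -49.0.

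Hspa1l, an Hsp70 gene best known from spermatids, starts on the other strand beside Hspa1a, and their windows overlap. It was at 71.9% of 750 calls, 1.11% of 270 and 3.85% of 26 in young WT, older WT and Tet2KO. The windows of Hspa1a and Hspa1l are offset by 546 bp, and the first held 131 methylated calls more in young WT. At least that many methylated calls of Hspa1a thus lay between 34971157 and 34971702, inside the transcribed gene (34969359 to 34972156).

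Hspa5 encodes BiP, the Hsp70 of the endoplasmic reticulum. Its window (chromosome 2, 34771095 to 34773094) was at 33.3% of 799 calls in young WT, 2.45% of 774 in older WT and 5.74% of 331 in Tet2KO. Its differences were -30.8 points for age (interval -34.3 to -27.4) and -27.6 points for Tet2KO (-31.5 to -23.1). Relative to the median promoter of its pool, the window held 4.27 times the calls in young WT, 2.21 times in older WT and 2.93 times in Tet2KO.

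Hspa2 is an Hsp70 needed in male meiosis, and it showed where in a window the methylated calls can lie. Its window (chromosome 12, 76403176 to 76405175) was at 21.6% of 486 calls, 2.50% of 879 and 1.30% of 386 in young WT, older WT and Tet2KO. A second window of the gene, shifted upstream by 521 bp, was at 2.09% of 287 calls in young WT, 2.39% in older WT and 1.27% in Tet2KO. The first window held 105 methylated calls in young WT and the second 6, so at least 99 lay between 76404655 and 76405175, inside the gene (76403812 to 76406938). In older WT and Tet2KO the corresponding least numbers were 8 and 1. Most methylated calls behind the Hspa2 difference thus lay at the downstream end of its window.

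The other Hsp70 genes stayed at 12.96% or less in every pool. Hspa8, the constitutive Hsp70 that also uncoats clathrin vesicles, was at 7.0%, 5.26% and 12.96%, and its Tet2KO level rested on 108 calls. By the deposited fraction Hspa8 was at 10.8%, 8.62% and 7.62%, so that the Tet2KO difference turned from 5.97 to -3.20 points. Hspa9, the mitochondrial Hsp70, was at 5.12%, 0.674% and 0%, the last from 239 calls. Hspa12a, Hspa12b and Hspa14 lay between 0% and 5.37% in every pool. Of the 10 Hsp70 genes, 4 were lower by 20 points with age and 5 in Tet2KO, beside 2.42% and 2.77% of all promoters, and none was higher. Both counts include Hspa1a, Hspa1b and Hspa1l, which are not separate measurements.

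Hsp90 promoters were raised in young WT to a smaller extent. Hsp90aa1, the stress-inducible cytosolic Hsp90, was at 21.9% of 393 calls in young WT, 2.42% of 866 in older WT and 1.27% of 711 in Tet2KO, with differences of -19.5 and -20.6 points. A second window of the gene, offset by 106 bp, was at 18.6% in young WT, and at least 16 of the 86 methylated calls of the first lay in those 106 bp towards the interior of the gene. Hsp90ab1, the constitutive cytosolic form, was at 19.9%, 12.9% and 6.58%. Its call share and its deposited fraction differed: the latter was 10.2%, 9.95% and 8.22%, so that the pools lay within 2 points by that measure. Hsp90b1, the form of the endoplasmic reticulum, was at 10.7%, 1.85% and 2.65%, the least level being that of older WT.

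The Hsp110 and mitochondrial chaperonin promoters were low in all pools. Hsph1, an inducible Hsp110, was at 1.70%, 0.658% and 0.476%, and Hspa4l at 1.87%, 4.66% and 4.73%. Hspa4, the remaining Hsp110 gene, was at 9.70% in young WT and at 1.44% and 0.441% in older WT and Tet2KO. Hspd1 (Hsp60) and Hspe1 (Hsp10) start beside each other on opposite strands and share nearly the same window, so their values are 1 measurement. That shared stretch was at 5.81% of 551 calls, 5.96% of 1208 and 2.56% of 429 by the Hspd1 window.

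Small heat shock proteins, which hold unfolded proteins without using ATP, differed in both directions. Hspb1 encodes Hsp27, a widely expressed inducible member. Its window (chromosome 5, 135887018 to 135889017) was at 34.2% of 237 calls in young WT, 3.08% of 357 in older WT and 4.71% of 85 in Tet2KO. Hspb1, like Hspa5, was thus highest in young WT, with differences of -31.1 and -29.5 points. Hspb9, known as a testis gene, was at 70.0% of 140 calls, 21.8% of 248 and 47.8% of 69. At Hspb9 all 3 pools were apart: Tet2KO lay 26.1 points above older WT (interval 13.4 to 38.6) and 22.2 points under young WT (difference -22.2, interval -35.5 to -8.07).

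Hspb3 and Hspb6 were lowest in young WT. Both are best known from muscle. Hspb3 (chromosome 13, 113662677 to 113664676) was at 13.0% of 77 calls in young WT, 46.3% of 54 in older WT and 58.9% of 56 in Tet2KO. Its differences were 33.3 points for age (interval 17.7 to 47.6) and 45.9 points for Tet2KO (29.9 to 59.2), while that between Tet2KO and older WT, 12.6 points, had an interval of -5.86 to 29.97. Hspb6, whose window also holds the start of Proser3, was at 6.06% of 99 calls, 22.0% of 227 and 37.7% of 114, which put it 16.0 points higher at 11 months and 31.7 points higher in Tet2KO. By the deposited fraction Hspb6 was at 11.0%, 34.2% and 29.3%, so that older WT was then the highest pool.

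The remaining small heat shock protein promoters were at 11.4% or less. Hspb2 was at 11.4%, 0.820% and 2.16%, Hspb8 stayed between 2.47% and 2.74%, and Hspb7 was at 0%, 1.85% and 8.33%. Hspb11, whose product is a subunit of intraflagellar transport, was at 5.52%, 0.522% and 3.33%. Of the 8 promoters of the family, 2 were lower by 20 points and 1 higher with age, beside 2.42% and 1.8% of all promoters. In Tet2KO 2 were lower and 2 higher, beside 2.77% and 2.21%.

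Among heat shock factors, no member differed by 20 points in any comparison by calls. Hsf1, the main stress-responsive factor, was at 0.662%, 1.40% and 1.12% from 453, 858 and 445 calls, and Hsf2 at 2.87%, 1.54% and 1.24%. Their promoters were thus close to unmethylated in every pool. Hsf5, a factor of male meiosis, was at 96.4% of 112 calls, 98.1% of 105 and 98.5% of 65, and Hsfy2 at 81.8%, 92.1% and 81.8% from 22, 38 and 11 calls. Hsf5 has 34 CpGs in its promoter sequence and Hsfy2 has 1, so the promoters methylated in every pool were not of one CpG density. Hsf3, on the X chromosome, was at 0 of 32 calls in young WT, which allows up to 9.38%, at 17.6% of 34 calls in older WT and at 3.57% of 28 calls in Tet2KO. The interval of its age difference was wide, from 3.46 to 33.5 points, and by the deposited fraction that difference was 21.1 points.

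DnaJ B proteins are partners of Hsp70, and 2 of their 13 promoters were lower by 20 points in both comparisons. Of all promoters, 2.42% were lower by as much with age and 2.77% in Tet2KO. Dnajb3 and Dnajb8 are both known from male germ cells. Dnajb3 (chromosome 1, 88204783 to 88206782) was at 44.7% of 358 calls in young WT, 0.785% of 382 in older WT and 1.96% of 153 in Tet2KO. Dnajb8 (chromosome 6, 88221268 to 88223267) was at 42.0% of 143 calls, 0% of 143 and 2.0% of 100, where the count of 0 allows up to 2.10%. By the deposited fraction their young WT levels were 43.9% and 39.4%, close to those by calls. Dnajb1, the main inducible partner of Hsp70, was at 18.6% of 914 calls, 3.02% of 597 and 0.398% of 251, and its differences of -15.6 and -18.2 points stayed under the threshold.

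Dnajb7 was methylated in every pool, at 98.0% of 49 calls, 92.1% of 63 and 95.1% of 41. Dnajb6, which holds back aggregation of polyglutamine proteins, lay at 2.36% or less in each. The other DnaJ B promoters ranged from 0% to 11.6%, the highest being Dnajb13, a sperm flagellum gene, in young WT. A further window at an internal start of Dnajb4 was at 32.4% of 68 calls in young WT and at 0% of 12 calls in older WT; it has no Tet2KO value and enters no comparison.

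Among the 4 DnaJ A genes, Dnaja1, a cytosolic partner of Hsp70, was raised in young WT, at 19.1% of 314 calls against 1.74% of 631 and 1.55% of 322. Dnaja2, Dnaja3 and Dnaja4 lay between 0.832% and 4.70%. The 23 DnaJ C promoters, the largest family here, had no member past 20 points by calls in any comparison, and their levels ran from 0% to 12.9%. The highest of these was Dnajc19, of the mitochondrial import motor, at 12.9% of 62 calls in young WT, and its deposited fraction was 5.95%. By the fraction Dnajc5b, with 11 calls in young WT and in Tet2KO, was 20.0 points higher in Tet2KO than in young WT. Dnajc3, an inhibitor of stress kinases in the endoplasmic reticulum, stayed at 1.45% or less. The 3 other genes caught by the prefix, Hspbp1, Hspbap1 and Hsf2bp, lay between 0.926% and 18.8% and differed by 5.26 points at most between pools and young WT.

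In the direct comparison of Tet2KO with older WT, groups that differ in both genotype and age, 1 of 74 genes was higher by 20 points in Tet2KO and 0 were lower, beside 1.53% and 1.23% of all promoters. The 1 was Hspb9. By the deposited fraction Hspb9 differed by 15.5 points and Hspb3, at 23.6 points, was the 1 gene past 20. Some genes that set young WT apart differed little between the other pools: Hspa1b by -1.19 points (interval -2.44 to 2.63) and Dnajb3 by 1.18 (-0.802 to 4.86). Hspa5 differed by 3.29 points (0.845 to 6.46) by calls, but by -3.08 by the deposited fraction. Intervals were wide at Hspa1a (4.18 points, -0.603 to 23.6) and Hspa1l (2.74, -1.065 to 17.8), which had 19 and 26 Tet2KO calls. Past 10 points 3 members were higher and 2 lower, beside 4.4% and 4.13% of all promoters. The median over the members was -0.051 points, beside -0.404 over all promoters.

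The deposited fraction, read here as a mean over CpG positions, would give each position the same weight, whereas the call share gives more weight to positions read often. Both measures were close at most members, with a median gap between -0.35 and -0.12 points in the 3 pools. In young WT the gap was above 10 points at 4 members and reached 22.9 points at Hspa1l, where the fraction was 48.9%. Hspa1b was at 73.5% and Hspa1a at 62.7% by the fraction, and Hspa2 at 11.1%. The fraction thus gave lower young WT levels at Hspa1a, Hspa1b and Hspa1l, which were still far above the other pools, where the fraction stayed under 6% at these genes.

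**Figure D3:**
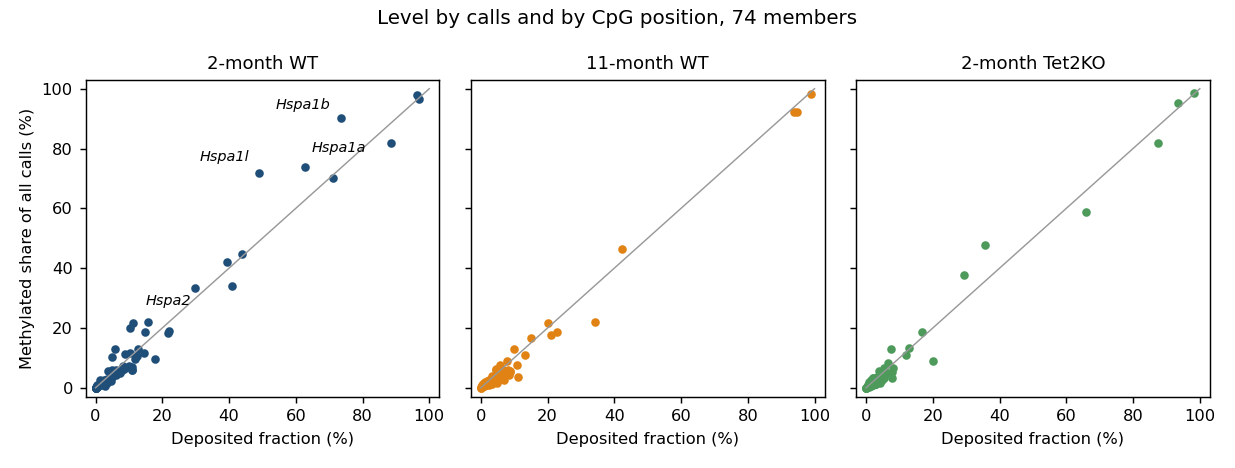
Methylated share of all calls (vertical) against the deposited fraction (horizontal), both in percent, for the 74 chaperone promoters in each pool; the line marks equal values. In young WT, Hspa1a, Hspa1b, Hspa1l and Hspa2 lie above the line by more than 10 points, up to 22.9 points at Hspa1l.

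Depth moved with these differences. The 8 promoters lower at 11 months by 20 points or more held a median of 2.96 times the calls of the median protein-coding promoter in young WT, but 0.907 times in older WT and 0.81 times in Tet2KO. The other 66 members held 1.41, 1.44 and 1.63 times. Within the 8, Hspa1a, Hspa1b, Hspa1l and Hspa5 were at 4.01 to 4.90 times in young WT, whereas Hspb9 and Dnajb8 were at 0.749 and 0.765 times. The part of depth in the result was not tested. Windows deep for their pool were left out by another measure, over 3 times the pool's median calls per position. That took out the 3 windows of Hspa1a, Hspa1b and Hspa1l but not that of Hspa5. Of the 71 members left, 5 were lower with age and 7 in Tet2KO. The shares of all promoters were not recomputed without deep windows.

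**Figure D4:**
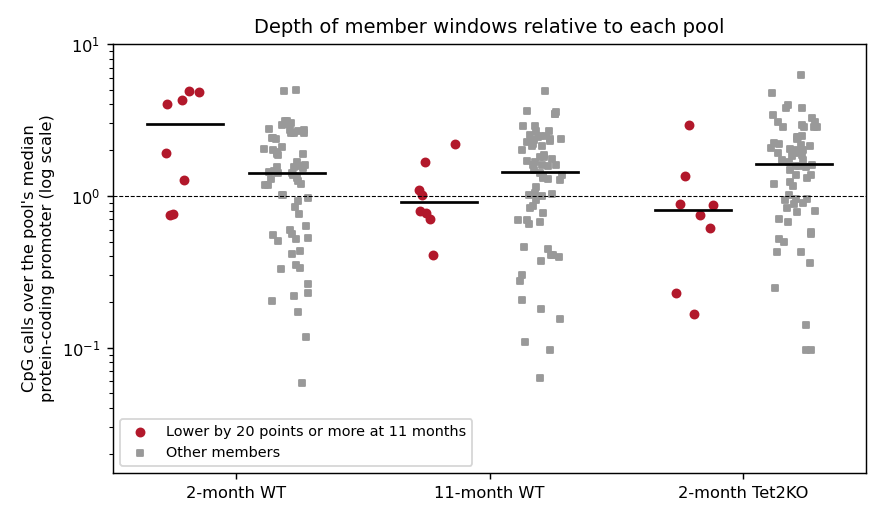
CpG calls per window divided by the median protein-coding promoter of the same pool, on a log scale, for the 8 members lower at 11 months by 20 points or more (red circles) and the other 66 (grey squares); bars are medians and the dashed line is 1. The median of the red group is 2.96 in young WT, 0.907 in older WT and 0.81 in Tet2KO.

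Co-chaperones and other folding partners outside these families were past 20 points about as often as all promoters. Of the 60 listed genes, 54 had a window in all 3 pools. With age, 1 (1.85%) was lower by 20 points and 0 were higher, beside 2.42% and 1.8% of all promoters. In Tet2KO 1 was lower and 1 higher, beside 2.77% and 2.21%. The lower one was Pdia3, a disulfide isomerase of the endoplasmic reticulum, at 20.8% of 279 calls in young WT, 0.755% of 662 in older WT and 0% of 118 in Tet2KO. The higher one was Ttc4, a co-chaperone of Hsp90, at 63.6% of 11 calls in Tet2KO against 7.03% and 8.25%. Cct4, a subunit of the cytosolic chaperonin, was at 18.5%, 0.890% and 0.629%. Past 10 points, the limit added after the data were seen, 6 of the 54 (11.1%) were lower with age and 0 higher. The shares of all promoters were 7.04% and 4.3%. For Tet2KO 6 were lower and 1 higher past 10 points, beside 8.14% and 5.3%. The median of the list was -1.60 points for age and -2.46 for Tet2KO, with 40 and 38 of the 54 genes lower. Over all 15914 genes the medians were 0 and -0.370 points, with 7809 and 8762 lower. Their levels in young WT had a median of 5.74%, and 1.81% and 2.01% in the other pools.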

How the data were processed

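DNA methylation in promoter windows was deposited as 3 tables, 1 for the pooled libraries of each group. The submitters' processing notes name Trimmomatic, Bismark (version field 12.5) and mm10; further steps and their order were not found in the sources. The deposited counts are methylated CpG calls, all CpG calls and covered CpG positions per window. The definition of the deposited fraction is not stated. It equalled the call share within 0.1 points in all 133, 57 and 470 windows with 1 call per position (young WT, older WT, Tet2KO), and was read as a mean over positions. Every window held at least 10 calls and 5 positions. The unfinished final line of the young WT table was left out.

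Windows were matched to RefSeq starts with their strand, and the 10 members without strand at either gene end. Where a gene had several windows, the one best covered in its shallowest pool was used. Members were named where they reached 20% in a pool or differed by 20 points, together with 20 listed genes, and other members and pathway genes were chosen after their values were seen. The members and lists were chosen with earlier results of these data known. Alternatives were the deposited fraction, call minimums of 20 and 50, a distance of 50 bp, the mean over windows, and windows deep for their pool left out (over 3 times the pool's median calls per position). A run without Hspa1l and Hspe1 was not planned in advance. Python 3.11.15 and pandas 2.3.3 were used, and the calls were tested on simulated data.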

Additional observations from a re-analysis of the deposited data

How the results depend on the processing

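The counts of members 20 points apart kept their direction under every alternative run, and their number mostly stayed within 1.5 times. The shares of all promoters were not recomputed under the alternatives, apart from those at 10 points. By the deposited fraction, 3 members were higher with age where 1 was by calls: Hspb3, with Hspb6 (23.2 points) and Hsf3 (21.1 points) added. By the same measure Dnaja1 (-20.6 points) joined the lower members with age, and Dnajc5b (20.0 points) the higher members in Tet2KO. Without windows deep for their pool, 5 members were lower with age where 8 were, because those of Hspa1a, Hspa1b and Hspa1l left the set. At 10 points, a limit chosen after the data were seen, 14 were lower and 4 higher with age, and 2 were lower and 3 higher in Tet2KO than in older WT. The median age difference, -0.065 points, turned to 0.055 without deep windows, 0.029 by the deposited fraction and 0.027 without Hspa1l and Hspe1. It stayed under 0 in the other runs. By the deposited fraction Hspa2 and Hsp90aa1 differed by -9.47 and -13.0 points in Tet2KO and Hspb6 by 18.3, all then under 20 points, while Hspb3 (23.6) took the place of Hspb9 (15.5) between Tet2KO and older WT, and the cause was not tested. The Hspa2 and Hsp90aa1 values were also under 20 points by the mean over windows (-10.6 and -19.0), and within 50 bp Hsp90aa1 was at -17.4 and Hspa2 had no window. With at least 20 calls in every pool Hspa1a left the set, and with at least 50 Hspa1l did too. Of 312 recomputed differences of named genes from young WT, 20 left their interval and 3 turned sign, none of the 3 past 20 points. By the fraction these were Hspa8 for Tet2KO (5.97 to -3.20) and Hspe1 for age (-0.714 to 0.365). By the mean over windows it was Hspd1 for age (0.153 to -0.281). Differences between Tet2KO and older WT were not in that count. Several of those turned sign by the fraction, such as Hspa5 (3.29 to -3.08) and Hspb6 (15.7 to -4.90). No paired analysis was possible because each group is a single pooled value, and for the same reason no library could be left out. Depth was lowest in Tet2KO at Dnajc5b and Hsfy2 (11 calls each), Dnajb13 (16), Hspa1a (19) and Hspa1l (26).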
